A study of Mus musculus with 6 samples.

Results

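The 74 genes described here encode proteins of the mitochondrial ribosome. They are the single-symbol rows of the RNA-seq tables whose symbol begins with Mrpl or Mrps and a number, out of 22988 rows used. Of these genes, 46 carry Mrpl symbols (large subunit) and 28 carry Mrps symbols (small subunit). A further 2 rows, Ccdc142,Mrpl53 and Mrps6,Slc5a3, join a matching symbol to a neighbouring gene and are reported separately. The measurements come from C2C12, an established line of mouse myoblasts (strain labelled C3H), and the series addressed expression after starvation or after loss of Foxk1. Polyadenylated RNA was sequenced in 3 libraries, 1 per group. The siNS starved group received the siRNA labelled siNS and was incubated in HBSS, a salt solution without serum or amino acids, for 4 h. The siFoxk1 non-starved group received siRNA against Foxk1, a forkhead transcription factor, in growth medium with 10% fetal bovine serum. The siNS non-starved group, the control of both comparisons, received siNS in that same medium. Because both comparisons share this control, their values are given side by side and were not correlated. All groups carried an siRNA, the starved group differed from its control in serum and nutrients together, and the labels do not say how long the siRNA acted.

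Mitochondrial ribosomes translate the few mRNAs of the mitochondrial genome, which encode core subunits of the respiratory chain and ATP synthase. Their RNA components come from mitochondrial DNA, whereas every protein component is encoded in the nucleus, made in the cytosol and imported. The complex descends from a bacterial ribosome, and many of its proteins have bacterial counterparts while others were added in mitochondria. Mitochondrial content is known to increase as myoblasts differentiate into muscle fibres. Symbols follow the original naming and not always the structure: in mammalian mitoribosome structures Mrps30 and Mrps18a lie in the large subunit, and Mrps36 has since been described as a subunit of the oxoglutarate dehydrogenase complex. They are grouped by symbol here.

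Expression is given as the authors' mean FPKM (fragments per kilobase of transcript per 1000000 mapped fragments) with their 95% interval. Fold changes are on the log2(FPKM + 1) scale, and ratios are of the plain FPKM. A gene is called apart where the intervals of both libraries do not overlap. With 1 library per group there is no spread between replicates, no test was run, and such a call compares these libraries and not the conditions. Foxk1, the gene targeted, stood at 16.1 FPKM in the starved, 5.15 FPKM in the siFoxk1 and 9.09 FPKM in the control library, with both treated intervals clear of the control. The myoblast markers Des and Myod1 stood at 403 and 10.7 FPKM in the starved, 520 and 95.8 FPKM in the siFoxk1 and 485 and 70.1 FPKM in the control library. Myog, a regulator of muscle differentiation, stood at 6.02 FPKM in the starved, 45.4 FPKM in the siFoxk1 and 14.2 FPKM in the control library, and Myf5 at 29.6, 17.5 and 16.8 FPKM in the same order. Cdh15, a muscle cadherin gene, stood at 112, 55.6 and 73.5 FPKM in that order, with intervals overlapping the control, so the 5 myoblast markers did not share a direction. Of 9 markers of other cell types, Ptprc, Pecam1, Adipoq, Krt5, Epcam and Alb lay under 0.04 FPKM in every library. The others were the macrophage gene Cd68 (4.10, 1.26 and 2.5 FPKM in the starved, siFoxk1 and control libraries), the keratin gene Krt14 (3.25, 14.2 and 6.11 FPKM) and the tubulin gene Tubb3 (52.6, 68.3 and 89.7 FPKM). Myog and Krt14 were apart in both comparisons, Myf5 was higher apart in the starved library, and Myod1 and Tubb3 were lower apart in the starved library; the part of these differences in the results below was not tested.

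Promoter sequences of 65 of the 74 genes were found in RefSeq (build GRCm38.p6), covering 250 bases before to 50 bases after the gene start. The 150 bases before the start are shown for 4 members that were lower apart in the starved library and for Mrpl9, which was among the highest there. Each is written 5′ to 3′ on the strand of its gene. Capitals mark matches on either strand to the string of the factor NRF1 (GCGC, any 2 bases, then GCGC again) or of ETS factors (CCGGAAG).

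Mrpl12, chr11:120484487-120484636, plus strand: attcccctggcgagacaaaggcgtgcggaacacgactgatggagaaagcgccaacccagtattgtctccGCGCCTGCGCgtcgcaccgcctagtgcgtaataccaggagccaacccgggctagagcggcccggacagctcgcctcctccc
Mrpl17, chr7:105811088-105811237, minus strand: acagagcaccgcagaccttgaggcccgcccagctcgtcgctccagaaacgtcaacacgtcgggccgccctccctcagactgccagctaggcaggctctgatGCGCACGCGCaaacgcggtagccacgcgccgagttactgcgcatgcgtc
Mrpl22, chr11:58171514-58171663, plus strand: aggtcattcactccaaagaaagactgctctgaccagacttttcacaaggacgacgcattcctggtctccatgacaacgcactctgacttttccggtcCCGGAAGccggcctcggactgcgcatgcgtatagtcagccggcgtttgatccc
Mrpl41, chr2:24975099-24975248, minus strand: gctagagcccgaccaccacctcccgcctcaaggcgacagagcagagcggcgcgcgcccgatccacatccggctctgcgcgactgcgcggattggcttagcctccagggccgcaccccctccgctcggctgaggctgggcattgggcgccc
Mrpl9, chr3:94443186-94443335, plus strand: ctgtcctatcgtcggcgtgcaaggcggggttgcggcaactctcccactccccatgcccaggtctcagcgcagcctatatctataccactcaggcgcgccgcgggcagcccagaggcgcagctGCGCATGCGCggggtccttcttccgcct

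The NRF1 string began at position -81 from the gene start in Mrpl12, at -49 in Mrpl17 and at -28 in Mrpl9, while Mrpl41 held none of the strings searched in its whole window. Of the 7 members lower apart in the starved library 6 have a promoter entry: the NRF1 string was present in 2, the YY1 string described below in 1, and the ETS string in 4 (Mrpl17, Mrpl18, Mrpl22 and Mrps16; 66.7%). The ETS matches of Mrpl17 at -237 and Mrpl18 at -240 lie outside the bases shown. With 6 promoters these shares are a description only.

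Over the 65 member promoters the NRF1 string was present in 13 (20.0%), against 6.43% of all 27025 RefSeq promoters of that length and 14.9% of the 8036 promoters of rows at 1 FPKM or more in the control library. The ETS string was present in 22 (33.8%), against 9.12% of all and 19.7% of those expressed in the control. A string bound by YY1 (AA, any base, then ATGGC) was present in 20 (30.8%), against 6.23% of all and 9.46% of those expressed; of its 23 matches in member promoters, 15 began after the gene start. By contrast the E-box CACGTG was present in 5 (7.69%), against 7.24% of all and 10.7% of those expressed. The forkhead string TGTTTAC was present in 2 (3.08%), those of Mrpl40 and Mrpl44, against 3.55% of all and 2.28% of those expressed. Both strands were searched, none of the strings contains another, and a match does not show that a factor binds there. The median GC content was 58.0% in member promoters, 52.7% in all and 61.7% in those expressed.

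All 74 genes reached 1 FPKM in every library. Their summed FPKM was 3015 in the starved, 3311 in the siFoxk1 and 3688 in the control library, or 0.571%, 0.589% and 0.651% of the FPKM of all rows. In the control library the median was 35.1 FPKM for large subunit and also 35.1 FPKM for small subunit genes. The quartiles of the 74 lay at 23.4 and 54.5 FPKM. Genes of the cytosolic ribosome were far more abundant, with a median of 1168 FPKM in that library.

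The levels of single members spanned 46.9 times in the control library. At the top stood Mrpl52 at 237 FPKM, Mrps21 at 220, Mrpl33 at 206, Mrpl42 at 164 and Mrpl12 at 130. Mrpl12 forms the stalk that recruits translation factors and is the member known to be present in several copies per ribosome. At the bottom stood Mrpl35 at 5.05 FPKM, Mrpl19 at 7.74, Mrpl1 at 8.88, Mrpl17 at 9.51 and Mrps25 at 10.1. Of the 73 pairs of neighbours in this order, 72 had overlapping intervals, the exception being Mrpl19 above Mrpl35. The order is thus not resolved between neighbours.

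Several of the highest values carry a limit. The deposited mean lay above its own upper limit for 14 members in at least 1 library and for 9 in all 3, among them Mrpl52, Mrps21, Mrpl33 and Mrpl42. Mrpl52, for example, had a mean of 237 FPKM and an interval of 110 to 160 in the control library. Over all rows of the control library 1.54% had such means, against 17.6% of the members. Only 11100 of all rows reached 1 FPKM there. The trait is not particular to the members: such means were found for 40.3% of cytosolic ribosomal protein genes and 55.3% of nuclear oxidative phosphorylation subunit genes. How the authors computed the intervals is not given in the sources used here.

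**Figure D1:**
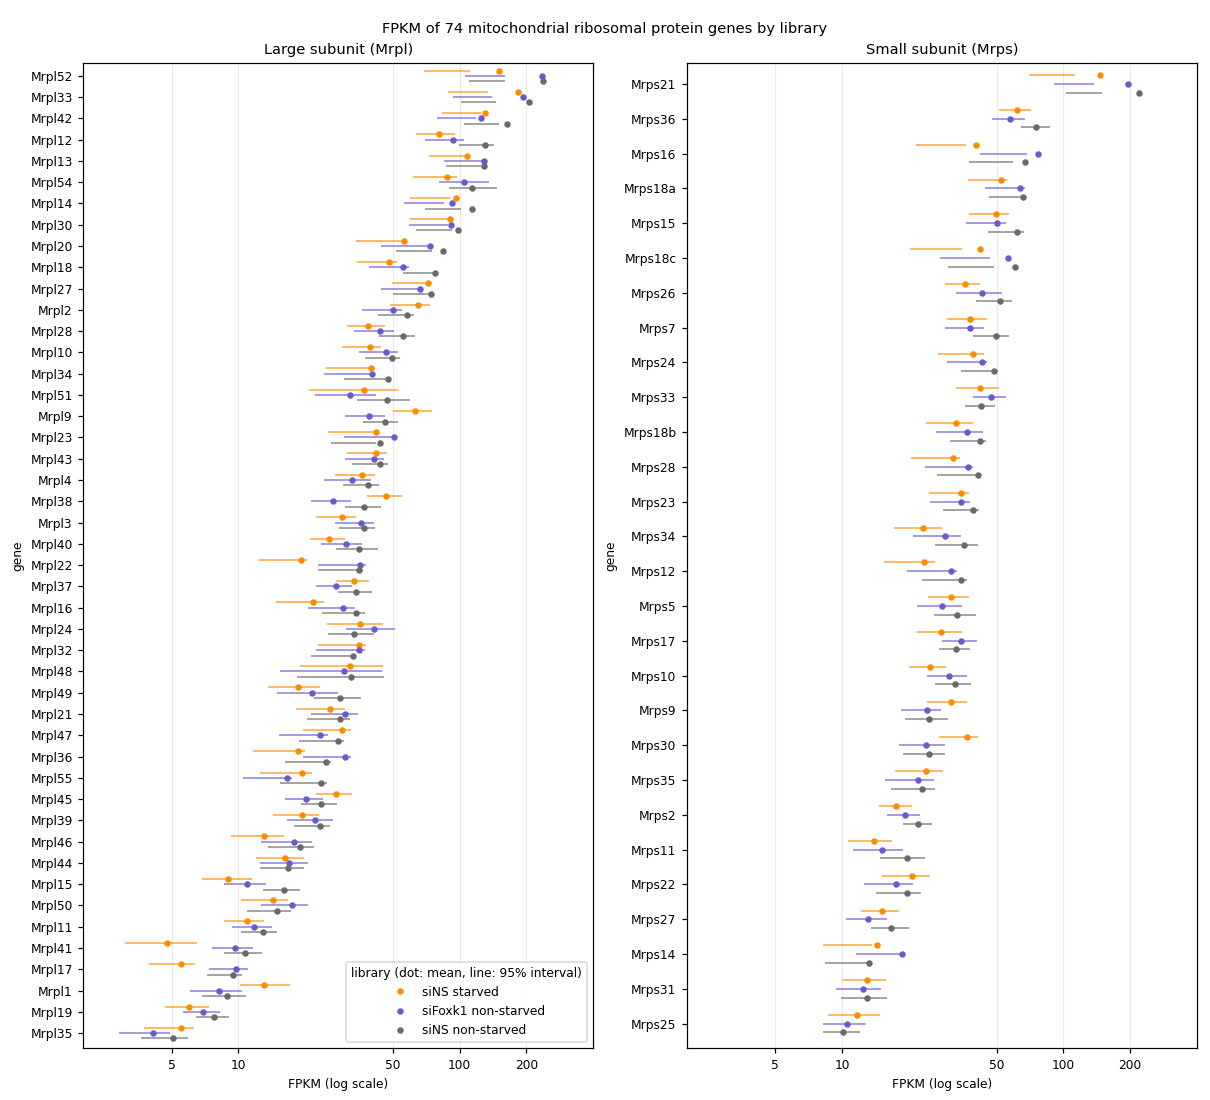
FPKM (log axis) of the 74 genes in the starved (orange), siFoxk1 (purple) and control (dark grey) libraries, large subunit on the left and small subunit on the right, ordered by the control level; dots are deposited means and lines 95% intervals. Mrpl52 is highest and Mrpl35 lowest in the control, and the dots of Mrpl52, Mrps21, Mrpl33 and Mrpl42 lie outside their own lines.

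The starvation comparison set the siNS starved library against the siNS non-starved library. Mitochondrial ribosomal protein genes stood lower in the starved library by small amounts that were spread over both subunits: 59 of 74 lay below 0 (79.7%) and 15 above. Of all rows 51.3% lay below 0, and of rows with control levels between the members' quartiles 61.2%. The median log2 fold change was -0.27, with quartiles of -0.46 and -0.03, against a median of -0.01 over 11396 rows at 1 FPKM or more in either library. Large subunit genes had a median of -0.25 and small subunit genes of -0.31. With the libraries rescaled to the same summed FPKM the medians were -0.15 for large and -0.21 for small subunit genes. This rescaling raises all rows alike by 0.10, so these medians cannot be set against the unscaled -0.01 of all rows. Without rescaling, rows whose control level lay between the members' quartiles had a median of -0.10. In a bulk library, less RNA per cell and a changed mix of cells cannot be told apart, and FPKM does not show changes in total RNA.

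Counting differences of at least 25% upward or 20% downward on the FPKM + 1 scale, 29 members were lower (39.2%) and 4 higher (5.41%), against 23.0% lower and 22.5% higher over all rows. Among rows with control levels between the members' quartiles, 28.5% were lower and 14.9% higher by that limit. At 2-fold, 1 member was lower (Mrpl41) and 0 were higher, against 3.00% and 3.12% of all rows. By intervals, 7 members were lower apart (9.46%) and 0 higher apart, against 10.9% and 12.2% of all rows. The share of members lower apart was therefore near that of all rows. Among rows with control levels between the members' quartiles, 14.1% were lower apart and 6.74% higher apart. By a looser rule, each mean outside the interval of the other library, 20 members were lower (27.0%) and 4 higher (5.41%), against 21.9% and 21.5% of all rows. At 1.5-fold, 12 members were lower (16.2%) and 0 higher, against 9.52% and 10.3%. With each library rescaled to the same summed FPKM, the starved library rises by 0.10 on the log2 scale against the control. Then 4 members were lower apart (Mrpl15, Mrpl17, Mrpl22 and Mrpl41) and 3 higher apart, against 7.68% and 15.5% of all rows. These shares are over the 12002 rows that reached 1 FPKM after rescaling, while the other shares are over 11396 rows.

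Of the 7 genes lower apart, 6 belong to the large subunit, which holds 46 of the 74 members. These are 13.0% of large subunit and 3.57% of small subunit members, against 10.9% of all rows. The difference between the subunits was not tested. Mrpl41, a large subunit protein without a bacterial counterpart, stood at 4.79 FPKM (interval 3.07 to 6.51) in the starved library, 9.66 FPKM (7.57 to 11.7) in the siFoxk1 library and 10.7 FPKM (8.64 to 12.8) in the control. It was the lowest member, with a log2 fold change of -1.02 in the starved library, while its siFoxk1 interval covered the control mean. Mrpl22, at the exit of the tunnel through which new chains leave, stood at 19.2 FPKM (12.4 to 20.4) in the starved, 35.3 FPKM in the siFoxk1 and 35.0 FPKM (22.9 to 36.4) in the control library. Mrpl17, also at the tunnel exit in bacterial ribosomes, stood at 5.54 FPKM (3.94 to 6.40) in the starved, 9.78 FPKM in the siFoxk1 and 9.51 FPKM (7.20 to 10.4) in the control library. For Mrpl22 and Mrpl17 the starved library alone was low, and the siFoxk1 level lay within 1.03 times the control.

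Mrpl12, which in human cells has also been described to bind the mitochondrial RNA polymerase, stood at 80.6 FPKM (63.6 to 95.3) in the starved, 92.9 FPKM (69.9 to 105) in the siFoxk1 and 130 FPKM (99.5 to 143) in the control library. Mrpl15, a core protein with a bacterial counterpart, stood at 8.95 FPKM (6.87 to 11.5) in the starved, 11 FPKM (8.58 to 13.4) in the siFoxk1 and 16.0 FPKM (12.9 to 19) in the control library. Mrpl18, of the central protuberance, stood at 48.0 FPKM (34.3 to 52.0) in the starved, 55.6 FPKM (39.1 to 58.9) in the siFoxk1 and 77.3 FPKM (55.4 to 80.1) in the control library. All 3 genes were low in both treated libraries, though only the starved intervals were clear of the control; the annotated span of Mrpl18 overlaps that of Tcp1, so their reads may be shared. Mrps16, a small subunit gene mutated in a human disorder of mitochondrial translation, stood at 40.3 FPKM (21.5 to 36.4) in the starved, 76.5 FPKM (42.1 to 68.5) in the siFoxk1 and 67.2 FPKM (37.4 to 58.9) in the control library. Its mean lay above its own upper limit in every library, and it is no longer apart with median ratio scaling.

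The members highest in the starved library had overlapping intervals. Mrps30 stood at 36.6 FPKM (27.3 to 41.2) in the starved, 24.0 FPKM in the siFoxk1 and 24.7 FPKM (18.8 to 29.3) in the control library, a log2 fold change of 0.55. Mrpl1, of the mobile stalk near the tRNA exit, stood at 13.1 FPKM (10.2 to 17.1) in the starved, 8.22 FPKM in the siFoxk1 and 8.88 FPKM (6.88 to 10.8) in the control library. Mrpl9, whose promoter is shown above, stood at 62.8 FPKM (50.2 to 75) in the starved, 39.1 FPKM in the siFoxk1 and 46.0 FPKM (36.5 to 52.7) in the control library. In all of them the starved library was the highest, and these genes are the 3 that are higher apart after rescaling to the same summed FPKM. Mrps9 and Mrpl38 followed, both with a log2 fold change of 0.32.

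**Figure D2:**
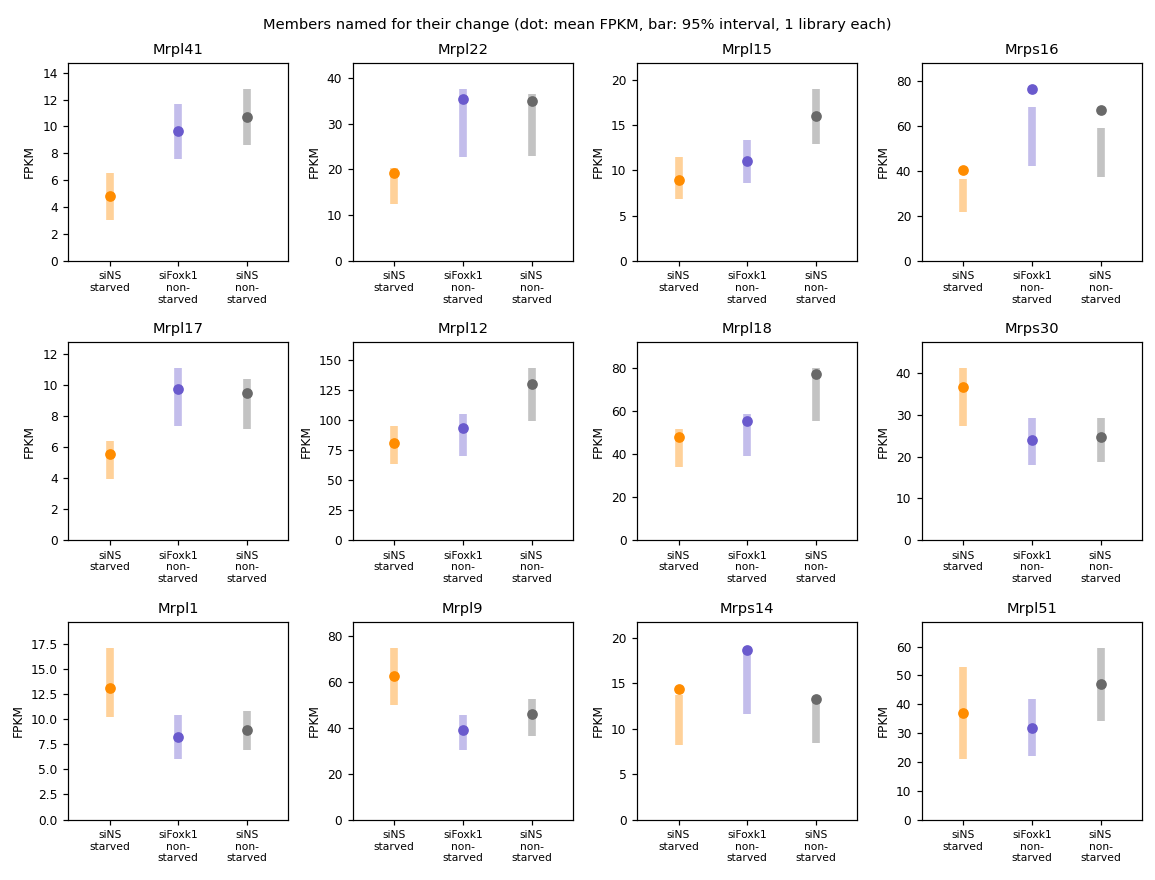
FPKM (linear axis starting at 0) of 12 members in the starved, siFoxk1 and control libraries, from left to right; dots are deposited means and bars 95% intervals. The first 7 panels are the members lower apart in the starved library, Mrps30, Mrpl1 and Mrpl9 are highest there, and Mrps14 and Mrpl51 are the highest and lowest in the siFoxk1 comparison.

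Members at different sites of the large subunit did not all lie on one side. Of 7 genes of the polypeptide exit, 4 lay above 0 in the starved library (Mrpl23, Mrpl17 and Mrpl22 lay below), with a median log2 fold change of 0.06. Among those above was Mrpl45, which tethers the ribosome to the inner membrane, at 0.22. Of 5 genes assigned to the central protuberance (Mrpl18, Mrpl38, Mrpl40, Mrpl46 and Mrpl48) all but Mrpl38 lay below 0, with a median of -0.44. The 5 genes near the peptidyl transferase centre had a median of -0.09, led downward by Mrpl16 at -0.62. Members assigned a bacterial counterpart here (45 genes) had a median of -0.31 and 6 lower apart (13.3%). The 29 genes counted as without one, Mrps28 and Mrpl55 among them, had a median of -0.17 and 1 lower apart (3.45%). Over all rows 10.9% were lower apart. The assignment was not checked against a reference and may be wrong for single genes, so no difference is read from this split. In the siFoxk1 comparison 5 of the 7 exit genes lay above 0, with a median of 0.04. All 5 genes assigned to the central protuberance lay below 0, with a median of -0.19. The 4 genes of the stalks (Mrpl1, Mrpl10, Mrpl11 and Mrpl12) had a median of -0.27 in the starved and -0.11 in the siFoxk1 comparison. Of all 74 members, 79.7% lay below 0 in the starved and 81.1% in the siFoxk1 comparison. The sites were assigned from general knowledge after the values were seen, and differences between the groups were not tested.

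The second comparison set the siFoxk1 non-starved library against the siNS non-starved library. Here too most members stood slightly lower: 60 of 74 lay below 0 (81.1%) and 14 above. Of all rows 47.9% lay below 0, and of rows with control levels between the members' quartiles 54.5%. The median log2 fold change was -0.15, with quartiles of -0.26 and -0.04, against 0.02 over 11357 rows and -0.03 over rows with control levels between the members' quartiles. Medians were -0.14 for large subunit and -0.16 for small subunit genes. No member had intervals apart in either direction, against 7.13% lower and 8.89% higher over all rows. By the limit of 25% upward or 20% downward, 13 members were lower (17.6%) and 1 higher (1.35%), against 16.4% and 18.6% of all rows, and 0 members reached 2-fold, against 1.45% lower and 2.61% higher. The members' share on the lower side was near that of all rows. Each mean lay outside the interval of the other library for 9 members on the lower (12.2%) and 0 on the higher side, against 16.6% and 18.2% of all rows. At 1.5-fold, 0 members were lower or higher, against 6.22% and 7.74%.

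The lowest member of this comparison was Mrpl51, without a bacterial counterpart, at 31.9 FPKM (22.1 to 41.7) in the siFoxk1, 36.8 FPKM in the starved and 46.9 FPKM (34.2 to 59.6) in the control library. Mrpl15 (log2 fold change -0.50), Mrpl55 (-0.49), Mrpl12 (-0.48) and Mrpl18 (-0.47) came next. Mrpl15, Mrpl12 and Mrpl18 were thus among the lowest members here and lower apart in the starved library, both measured against the same control. At the other end stood Mrps14, a protein of the small subunit head, at 18.6 FPKM (11.6 to 18.9) in the siFoxk1, 14.4 FPKM in the starved and 13.3 FPKM (8.40 to 13.4) in the control library. It was the 1 member past 25% upward, followed by Mrpl24 (0.30), Mrpl36 (0.27), Mrpl50 (0.21) and Mrpl23 (0.20). The intervals of all these genes overlapped those of the control, and the span of Mrpl24 overlaps that of Rrnad1.

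Set side by side, 49 members lay below 0 in both comparisons and 4 above 0 in both, while 10 lay below 0 only in the starved and 11 only in the siFoxk1 comparison. Both values use the same control library, so an error in the control level would move both the same way. The joint share over all rows was not computed, and these counts do not show a common response. Mrpl38 stood above the control in one library and below it in the other, at 46.4 FPKM (38.2 to 54.7) in the starved library and 26.9 FPKM (21.4 to 32.4) in the siFoxk1 library, whose intervals do not overlap each other, against 37.1 FPKM (30.2 to 43.9) in the control. Mrpl9 likewise had a starved interval above its siFoxk1 interval. In the other direction, the starved intervals of Mrpl17, Mrpl22, Mrpl41 and Mrps16 lay below their siFoxk1 intervals. The share of all rows with such intervals was not computed. The genes of this paragraph were picked after their values were seen.

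**Figure D3:**
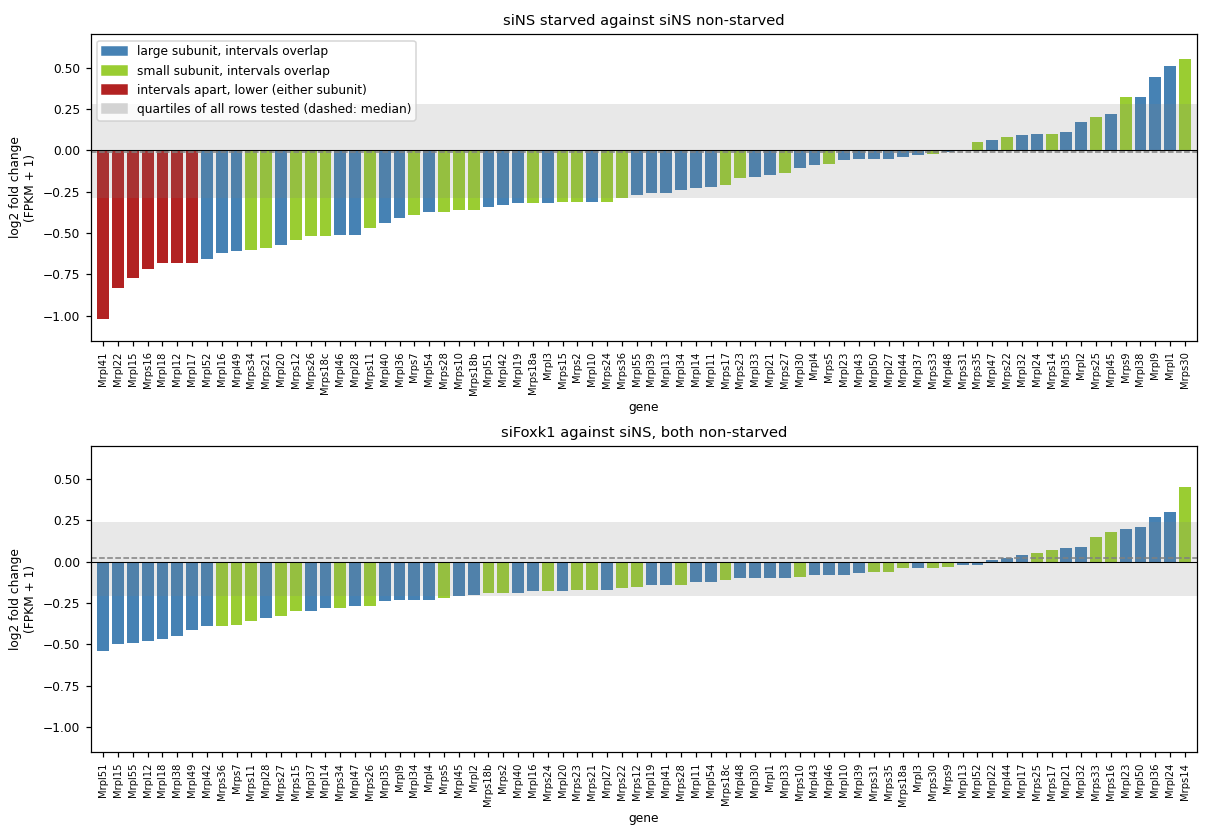
Log2 fold change on the FPKM + 1 scale of each of the 74 genes, ranked, for the starved (top) and siFoxk1 (bottom) library against the control; blue bars are large subunit, green bars small subunit, red bars members with intervals apart, and the grey band spans the quartiles of all rows with the median dashed. Most bars lie below 0 in both panels, and the 7 red bars are all at the low end of the starvation panel.

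The rows joined to a neighbour gave a mixed picture. Mrps6,Slc5a3, which combines a small subunit gene with a myo-inositol transporter gene, stood at 77.8 FPKM (61.5 to 94.2) in the starved, 54.7 FPKM (42.4 to 67.1) in the siFoxk1 and 103 FPKM (81.0 to 126) in the control library, lower apart in the siFoxk1 comparison. To which of both genes the lower value belongs cannot be told apart in a joint row. Ccdc142,Mrpl53 stood at 43.5, 35.7 and 51.4 FPKM in the starved, siFoxk1 and control libraries, with overlapping intervals. A further 7 mitoribosomal proteins have other symbols: Dap3, Gadd45gip1, Chchd1, Ptcd3, Aurkaip1, Ict1 and Mrp63. Their median was -0.27 in the starved and -0.10 in the siFoxk1 comparison, against -0.01 and 0.02 over all rows. Of these 7 genes 0 were apart, too few genes to set against the shares of all rows. Those were 12.2% higher and 10.9% lower apart in the starved, and 8.89% and 7.13% in the siFoxk1 comparison. Ptcd3, of the small subunit, was the lowest of the 7 in the starved comparison. It stood at 14.2 FPKM in the starved, 19.2 FPKM in the siFoxk1 and 19.4 FPKM in the control library.

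Assembly and rRNA modification genes of the mitochondrial ribosome showed no common direction in the starved library. Of 25 assembly and rRNA modification genes, the starved intervals of 2 lay above and of 2 below the control, and the median was -0.01. The higher genes were Mterfd2, an assembly factor also called Mterf4 (6.65 FPKM in the starved, 3.67 FPKM in the control library), and Rpusd4, a pseudouridine synthase (11.5 FPKM in the starved, 7.42 FPKM in the control library). The lower genes were Trub2, another pseudouridine synthase (7.74 FPKM in the starved, 13.6 FPKM in the control library), and Wbscr16, also called Rcc1l (7.36 FPKM in the starved, 12.0 FPKM in the control library). None of the 25 was apart in the siFoxk1 comparison, against 8.89% higher and 7.13% lower over all rows. The 14 expressed translation factors had a median of -0.12 in the starved library, with 64.3% below 0 (all rows 51.3%). Of these 14, 1 was lower apart in the starved library (7.14%), against 10.9% of all rows, and 0 were apart in the siFoxk1 library. It was the elongation factor gene Tsfm, at 23.7 FPKM (18.1 to 27.6) in the starved, 28.4 FPKM in the siFoxk1 and 38.5 FPKM (29.6 to 43.0) in the control library.

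Among 12 expressed regulators of mitochondrial biogenesis, Pprc1, a coactivator of NRF1-driven genes, had a starved interval below that of the control. Its levels were 8.03 FPKM (6.66 to 9.40) in the starved, 20.4 FPKM in the siFoxk1 and 16.5 FPKM (14.2 to 18.9) in the control library. Esrra, a nuclear receptor for mitochondrial genes, was lower apart in the siFoxk1 library. Its levels were 8.60 FPKM (interval 5.21 to 12.0) with siFoxk1, 19.1 FPKM after starvation and 20.6 FPKM (interval 13.8 to 27.5) in the control. The helicase gene Peo1, whose span overlaps Mrpl43, was higher apart in the starved library, at 11.2 FPKM against 7.02 FPKM in the control; Mrpl43 itself stood at 41.8 FPKM in the starved and 43.5 FPKM in the control library. Nrf1, Gabpa, Yy1, Myc, Tfam, Tfb2m, Polrmt, Ppargc1b and Mterf had overlapping intervals in both comparisons, so none of these was called. Of the 12 regulators 8.33% were lower apart and 8.33% higher apart in the starved library, against 10.9% and 12.2% of all rows. In the siFoxk1 library 8.33% were lower apart, against 7.13% of all rows. Ppargc1a, the coactivator PGC-1 alpha, did not reach the limit of 1 FPKM and entered no count, but its intervals were apart: it stood at 0.847 FPKM (0.578 to 1.12) in the starved library, against 0.0704 FPKM (0.0282 to 0.107) in the control. Its siFoxk1 level was 0.0228 FPKM, with an interval overlapping that of the control. Nrf1 stood at 15.1, 13.1 and 15.7 FPKM in the starved, siFoxk1 and control libraries.

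Nuclear subunit genes of oxidative phosphorylation (75 expressed) had a median of -0.21 in the starved and -0.09 in the siFoxk1 comparison. In the starved library 66 lay below 0 (88.0%, all rows 51.3%) and 1 was lower apart (1.33%, all rows 10.9%). Cytosolic ribosomal protein genes, listed by symbol (73 expressed), had medians of -0.02 and -0.05, with 1 lower apart in the starved library (1.37%, all rows 10.9%). This was Rpl7l1, which entered by its symbol and stood at 60.0 FPKM in the control library, against a list median of 1168 FPKM. The members' medians of -0.27 and -0.15 lay below those of both lists. The difference between the lists was not tested.

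**Figure D4:**
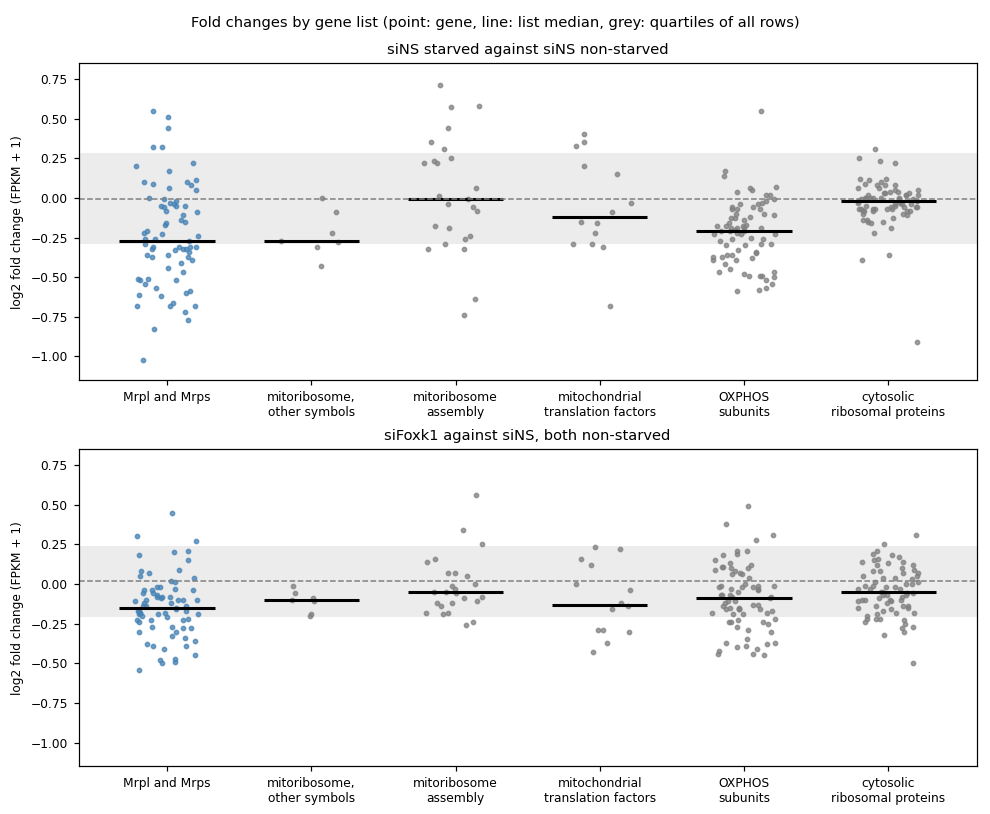
Log2 fold change on the FPKM + 1 scale of single genes (points) in the mitoribosomal members and in 5 related lists, for the starved (top) and siFoxk1 (bottom) library against the control; black lines are list medians, and the grey band spans the quartiles of all rows. The members' line lies at -0.27 in the top and -0.15 in the bottom panel, and cytosolic ribosomal protein genes cluster near 0.

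Some members lie close to another gene in the RefSeq annotation. A gene on the opposite strand starts within 1000 bases upstream of 24 of the 65 members with a promoter entry. The same share over all genes was not computed, either for these neighbours or for the overlaps below. Mrpl46 and Mrps11 are such a pair of members: Mrpl46 stood at 13.0, 17.8 and 18.9 FPKM and Mrps11 at 14.0, 15.2 and 19.7 FPKM in the starved, siFoxk1 and control libraries. Their log2 fold changes were -0.51 and -0.47 in the starved library. These make 23 distinct pairs, of which 11 lay on the same side of 0 and 12 on opposite sides in the starved comparison, and 15 and 8 in the siFoxk1 comparison. The neighbour was apart in 3 pairs in the starved library, where 12.2% of all rows were higher apart and 10.9% lower apart. Klc4, a kinesin light chain gene beside Mrpl2, was higher apart at 12.5 FPKM in the starved, against 5.62 FPKM in the control library, and Mrpl2 had a log2 fold change of 0.17. Ppp1r10, beside Mrps18b, was lower apart at 11 FPKM in the starved, against 18.2 FPKM in the control library, and Mrps18b had a log2 fold change of -0.36. Mrpl41 and its neighbour Pnpla7, a lysophospholipase gene, lay on opposite sides: Pnpla7 stood at 3.46 FPKM in the starved and 1.26 FPKM in the control library, higher with intervals apart. Tcp1, a chaperonin subunit gene next to Mrpl18, stood at 149 FPKM in the starved and 192 FPKM in the control library, with overlapping intervals. In the siFoxk1 library 2 neighbours were apart, Klc4 (higher) and Ncapd2 beside Mrpl51 (lower). Of all rows 8.89% were higher apart and 7.13% lower apart there. The pairs named were picked after their values were seen. The annotated spans of 17 members overlap another coding gene and 4 members have a named pseudogene in RefSeq, so their reads may be shared with other genes.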

How the data were processed

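FPKM values with a lower and an upper 95% limit were deposited by the authors, per the file headers, with 1 table per RNA library. Cufflinks 2.1.1, Cuffdiff, TopHat2 2.0.9, Bowtie2 2.1.0 and build mm9 are named, without roles, per the submitters' processing notes. Options, annotation, interval method, strandedness and any pooling behind the word mean were not stated there. Read depth is therefore unknown, and count tests were not applied. The Zzz3 row had misordered limits and was dropped.

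Fold changes used a pseudocount of 1, which understates changes of low genes, and covered rows reaching 1 FPKM in either library compared. Named genes are those with intervals apart, the 5 highest and 5 lowest by fold change or control level, and the largest changes of each list. Members and lists were chosen with earlier results of these data known, and the structural sites and bacterial counterparts were assigned from general knowledge after the values were seen. Of 7, 25, 16 and 14 genes in the lists of other symbols, assembly, translation factors and regulators, 7, 25, 15 and 13 were found. Names, neighbours, overlaps and promoters came from RefSeq (GRCm38.p6), using the first promoter listed per gene. The ChIP-seq regions (mm9) were not used here, since they could not be placed at these genes. The fold change and interval calls were tested on simulated data whose set changes were larger than any seen in the members. Rows with a mean above their own upper limit were left out, and wide intervals were not scored. The simulation therefore does not cover the small changes or such rows reported here. Computations ran in Python 3.11.15 with pandas 2.3.3, numpy 2.4.6 and, for plots, matplotlib 3.10.9.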

Additional observations from a re-analysis of the deposited data

How the results depend on the processing

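With 1 library per group no result has a replicate check. Other filters on low values left all 74 members in and could not change the 20 values recomputed with them. Of the other recomputed values, 73 stayed close to the main one (a count within 1.5 times, a median within 0.1 and a summed ratio within 10%), 13 moved further, and none changed sign. The subunit medians were negative under every setting tried. Requiring only that each mean lie outside the other interval gave 20 members lower and 4 higher in the starved (all rows 21.9% and 21.5%) and 9 lower in the siFoxk1 comparison (16.6%). A fold limit of 1.5 left 12 lower and 0 higher in the starved (all rows 9.52% and 10.3%), and 0 in either direction in the siFoxk1 comparison. The 1 member past 2-fold in the starved library, Mrpl41, was not past it with a pseudocount of 5, median ratio scaling or rescaling to equal summed FPKM (0 members each). That rescaling, added after the values were seen, gave 4 lower apart and 3 higher apart and a large subunit median of -0.15 in the starved comparison, where the shift by construction was 0.10. Interval midpoints in place of means, also added later, gave starved medians of -0.21 for large and -0.26 for small subunit genes; the interval calls do not use the mean. No paired analysis was possible because each group has 1 library. Depth is unknown, so the intervals alone limit what can be resolved.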
